A study of Mus musculus with 2 samples.

Results

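Wnt10a, Wnt10b, Wnt6, Wnt4, Wnt5a and Wnt7b encode Wnt ligands, and Lef1, Axin2, Nkd1 and Tcf7 are genes by which a Wnt response is commonly read. These 10 genes, taken by symbol from 31253 features, were described in mandibular molar tooth germs of newborn C57black/B6 mice, and all 10 had UMIs (unique molecular identifiers, each standing for 1 captured transcript) in both libraries. One library came from K14cre;Edarfl/fl germs, called the deletion library here, in which a Cre driven by the keratin 14 promoter acts on a loxP-flanked Edar allele in epithelium that uses keratin 14. The other came from Edarfl/fl germs, which are labelled with the same floxed allele and without K14cre, and served as the control. Edar, mutated in some forms of hypohidrotic ectodermal dysplasia, is the epithelial receptor of ectodysplasin, and the comparison addresses what its loss in epithelium does to the germ. The number of pups pooled into a library is not given in the sources used here, and how completely Edar was recombined was not measured.

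Wnt proteins are secreted glycoproteins that need Wls to leave the sending cell and bind Frizzled receptors with Lrp5 or Lrp6 on the receiving cell. In the canonical branch this stabilises beta-catenin, which then works with TCF and LEF factors at target genes. Wnt10a, Wnt10b, Wnt6, Wnt4 and Wnt7b are known from dental or oral epithelium, Wnt10a also from odontoblasts, and Wnt5a is the dental mesenchymal ligand most often linked to non-canonical signalling. Lef1 and Tcf7 encode DNA-binding partners of beta-catenin, Axin2 a scaffold of the beta-catenin destruction complex, and Nkd1 a Dishevelled-binding inhibitor. Axin2 and Nkd1 are feedback genes that canonical signalling induces in many tissues.

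The deletion library held 16029 barcodes and 62158879 UMIs, and the control library 13990 barcodes and 73375441 UMIs. After filtering, 15244 and 13255 cells remained, at medians of 3329 and 4444 UMIs, and 4 barcode sequences occurred in both libraries. Epithelium-like cells numbered 1888 in the deletion library and 2274 in the control library, and mesenchyme-like cells 10614 and 8265. Cells with Xist and no Y-linked UMI were 34.9% of the deletion library and 20.8% of the control library, and those with the reverse pattern were 24.1% and 38.7%, so both libraries held cells of both sexes in different proportions. Edar stood at 21.1 CPM in deletion epithelium and at 34.6 CPM in control epithelium, but whether the counted 3' tags lie in the deleted stretch is not known, so this level does not check the label.

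Levels are given in CPM, the UMIs of a gene per 1000000 UMIs of all cells of that class in that library, with exact 95% Poisson intervals in parentheses. Each genotype had a single library, so no test was run, and every interval covers counting error only. A gene was called higher or lower where it reached 50 CPM in 1 library, where CPM + 5 differed at least 2-fold, and where the 95% interval of the count ratio excluded 1. By this rule 0.254% of the 3550 genes at 50 CPM were called in epithelium-like cells and 0.604% of 3474 in mesenchyme-like cells. None of the 10 genes was called in either class. Only 4 of them reached 50 CPM in epithelium-like cells and 7 in mesenchyme-like cells, so the rule could not call the others there. Log2 ratios below are on the CPM + 5 scale, deletion over control, and understate differences of weakly expressed genes.

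Sender classes differed from ligand to ligand. Epithelium-like cells held 11.5% of all UMIs in the deletion library and 14.7% in the control library, and mesenchyme-like cells held 69.9% and 66.2%. Epithelium-like cells nevertheless held 55.3% and 76.9% of Wnt10b UMIs, 69.2% and 75.8% of Wnt4 UMIs and 69.7% and 78.3% of Wnt7b UMIs. For Wnt6 their share was 31.2% and 27.9%, and for Wnt10a 14.6% and 14.96%. Wnt5a went the other way, with mesenchyme holding 95.1% of its UMIs in the deletion library and 92.2% in the control library. All 4 response genes lay mainly in mesenchyme, which held between 80.5% and 95.3% of their UMIs. Per UMI of the class, however, the few glia-like cells had the highest values of a class for Nkd1 in the deletion library (103 CPM, 39 UMIs) and for Axin2 in the control library (138 CPM, 16 UMIs).

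**Figure D1:**
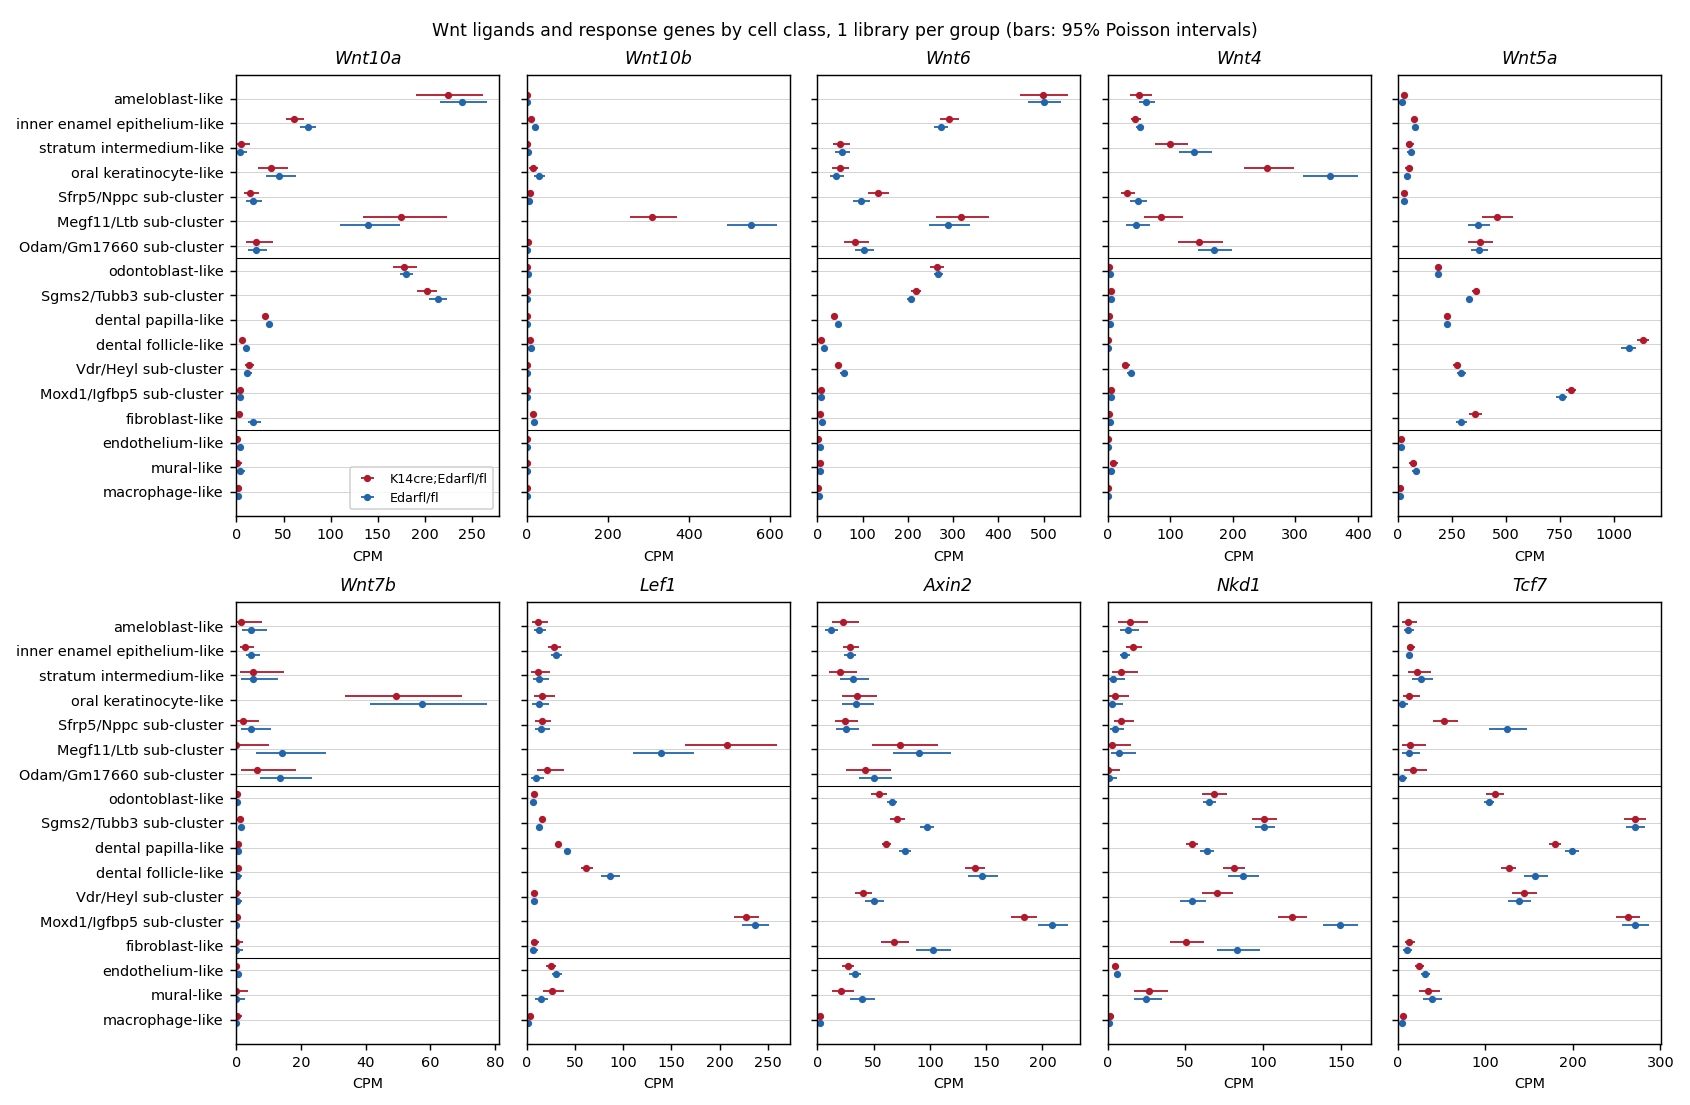
CPM of each of the 10 genes (x axes, linear, each panel with its own scale) in epithelial divisions (upper block), mesenchymal divisions (middle block) and 3 other classes (lower block), with the K14cre;Edarfl/fl library in red above the Edarfl/fl library in blue and bars for 95% Poisson intervals. Wnt10b peaks in the Megf11/Ltb sub-cluster of the divisions shown, Wnt4 and Wnt7b in oral keratinocyte-like cells, Wnt5a in dental follicle-like cells, and Axin2, Nkd1 and Lef1 in the Moxd1/Igfbp5 sub-cluster.

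Wnt10b (ENSMUSG00000022996, chromosome 15, 98770712 to 98778150, minus strand) was concentrated in 1 small epithelial population. This unnamed sub-cluster, led by Megf11, Ltb, Kremen2 and Stap1, held 114 cells in the deletion library and 149 in the control library, and was found by clustering without any of the 10 genes. There Wnt10b reached 309 CPM (254 to 371, 113 UMIs) in the deletion library and 553 CPM (493 to 618, 313 UMIs) in the control library. In the rest of the epithelium it stood at 7.39 and 12.4 CPM. Of the enamel knot markers, Edar had 172 and 244 CPM there, and Cdkn1a, a cell cycle inhibitor, 221 and 171 CPM (81 and 97 UMIs). Fgf4, a growth factor of enamel knots, had 12 and 17 UMIs, Slit1 7 and 5, and Fgf20 3 and 3. These 5 markers summed to 183 and 268.5 CPM over epithelium-like cells. In mesenchyme-like cells they summed to 274 and 432 CPM, with Edar at 1.43 and 1.36 CPM, so the set is not particular to this population. Only 2 of the 5 enamel knot markers were detected widely enough for a name, so the cells were left unnamed. Over the 32 clusters and sub-clusters of at least 50 cells, the genes whose levels followed Wnt10b most closely were Kremen2, a Dickkopf receptor (Pearson r = 0.85), and Edar (r = 0.82).

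Wnt6 (ENSMUSG00000033227, chromosome 1, 74771892 to 74785322, plus strand) and Wnt10a (ENSMUSG00000026167, chromosome 1, 74791516 to 74804179, plus strand) are neighbouring genes and had similar profiles (r = 0.84 over the 32 clusters). Both were highest in ameloblast-like cells, the makers of enamel, and were high again in odontoblast-like cells, the makers of dentin. In ameloblast-like cells Wnt6 stood at 498 CPM in the deletion library (448 to 553) and at 501 CPM in the control library (466 to 538), and Wnt10a at 224 (191 to 262) and 240 CPM (216 to 266). Inner enamel epithelium-like cells, which precede ameloblasts, had 292 and 273 CPM of Wnt6 and 61.5 and 75.6 CPM of Wnt10a. On the mesenchymal side, odontoblast-like cells had 265 and 268 CPM of Wnt6 and 178 and 180 CPM of Wnt10a. The mesenchymal sub-cluster led by Sgms2, Tubb3, Gfra1 and Smpd3 had 217 and 207 CPM of Wnt6 and 202 and 214 CPM of Wnt10a. Dental follicle-like cells had 8.36 and 15.02 CPM of Wnt6 and 5.68 and 10.5 CPM of Wnt10a, against 2.73 and 3.38 CPM of Wnt6 and 2.13 and 1.19 CPM of Wnt10a in macrophage-like cells, which are not known as a source of either. The likest genes were Tubb3, a neuronal beta-tubulin (r = 0.85), and Carmil1, an actin regulator (r = 0.82), for Wnt10a. For Wnt6 they were Hs3st3b1, a heparan sulfate sulfotransferase (r = 0.93), and Adamts17, a metalloprotease (r = 0.92).

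Wnt4 (ENSMUSG00000036856, chromosome 4, 137277489 to 137299726, plus strand) and Wnt7b (ENSMUSG00000022382, chromosome 15, 85535437 to 85582473, minus strand) were both highest in oral keratinocyte-like cells. Wnt4 stood there at 256 CPM in the deletion library (218 to 298) and 355 CPM in the control library (313 to 401), and Wnt7b at 49.2 (33.5 to 69.9, 31 UMIs) and 57.3 CPM (41.3 to 77.5, 42 UMIs). Wnt4 was also present on the dental side of the epithelium, with 145 and 170 CPM in the unnamed sub-cluster led by Odam, Gm17660, Pi15 and Itga1, and 99.1 and 138 CPM in stratum intermedium-like cells, the layer behind the ameloblasts. Wnt7b had few UMIs in other epithelial divisions, with 0 and 8 UMIs in the Wnt10b-rich sub-cluster and 3 and 13 UMIs in the Odam-led one. The 2 genes correlated at r = 0.86 over the clusters. The genes most like Wnt4 were Sh3rf2 and the desmosomal gene Dsp (r = 0.93 and 0.92), and those most like Wnt7b were the suprabasal keratin Krt1 and Sh3rf2 (r = 0.95 and 0.90).

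Wnt5a (ENSMUSG00000021994, chromosome 14, 28504750 to 28527448, plus strand) was the most abundant of the 6 ligands, with 20360 UMIs in the deletion library and 17882 in the control library. Dental follicle-like cells, the sac around the germ, had 1132 (1106 to 1159) and 1066 CPM (1032 to 1102), followed by the mesenchymal sub-cluster led by Moxd1, Igfbp5, Hsd11b2 and Aldh1a3 with 799.9 and 756 CPM. Dental papilla-like cells had 228 and 225 CPM and odontoblast-like cells 187 and 185 CPM. Within epithelium 2 unnamed sub-clusters stood out, the Wnt10b-rich one with 456 and 371 CPM and the Odam-led one with 379 and 373 CPM, whereas ameloblast-like cells had 28.2 and 19.8 CPM. Its likest genes were Glis2, a zinc finger gene (r = 0.85), and Rasl11b (r = 0.84).

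The response genes did not share 1 profile, though all were high in the Moxd1-led sub-cluster. All were also high in the follicle-like sub-cluster led by Top2a and Prc1. It had 146 CPM of Axin2 in the deletion library and 178 CPM in the control library. Lef1 stood there at 254 and 248 CPM, Nkd1 at 107 and 125 CPM and Tcf7 at 329 and 337 CPM. For Tcf7 this was the highest level of the 32 clusters in both libraries. Axin2 (ENSMUSG00000000142, chromosome 11, 108920349 to 108950783, plus strand) was highest in the Moxd1-led sub-cluster, at 183 CPM in the deletion library (172 to 195) and 209 CPM in the control library (196 to 223), and dental follicle-like cells had 140 and 147 CPM. Nkd1 (ENSMUSG00000031661, chromosome 8, 88521354 to 88594884, plus strand) had 119 and 149 CPM in the Moxd1-led sub-cluster and 100.5 and 101 CPM in the Sgms2-led one. Tcf7 (ENSMUSG00000000782, chromosome 11, 52252371 to 52283014, minus strand) was about equal in these 2, with 263 and 271 CPM in the Moxd1-led and 271 and 271 CPM in the Sgms2-led sub-cluster. Lef1 (ENSMUSG00000027985, chromosome 3, 131110471 to 131224356, plus strand) had 227 and 237 CPM in the Moxd1-led sub-cluster but 15.6 and 12.3 CPM in the Sgms2-led one, and odontoblast-like cells had 7.29 and 6.09 CPM. The Sgms2-led cells, rich in Wnt10a and Wnt6, were thus rich in Tcf7 and Nkd1 and poor in Lef1, while odontoblast-like cells had 111 and 104 CPM of Tcf7 and 68.4 and 65.4 CPM of Nkd1, below the averages of the mesenchyme-like class. Axin2 tracked Wnt5a (r = 0.84) and Nkd1 (r = 0.81), Nkd1 tracked Tcf7 (r = 0.80), and Lef1 correlated with Axin2 at r = 0.46. These correlations describe 32 clusters that share libraries and depth.

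In epithelium the response genes were low. Axin2 stood at 30.9 and 32.7 CPM, Lef1 at 30.9 and 26.8 CPM, Tcf7 at 22.0 and 25.1 CPM and Nkd1 at 11.5 and 8.36 CPM. Lef1 reached 208 CPM in the deletion library (164 to 260, 76 UMIs) and 140 CPM in the control library (110 to 174, 79 UMIs) in the Wnt10b-rich sub-cluster, where Axin2 also had its highest epithelial level, 73.8 and 90.1 CPM. Tcf7 had its highest epithelial level in another unnamed sub-cluster, led by Sfrp5, Nppc, Aldh1a3 and Rrm2. Endothelium-like cells had 26.9 and 33.4 CPM of Axin2, with intervals that overlapped the epithelial ones in both libraries, and macrophage-like cells had 2.13 and 2.59 CPM. The mesenchymal markers Col1a1, Col1a2, Col3a1, Pdgfra, Msx1 and Twist1 summed to 2286 and 2248 CPM in epithelium-like cells and to 45002 and 72514 CPM in mesenchyme-like cells, and their part in the low epithelial values was not tested. A few UMIs marked other cells: Lef1 had 19 and 31 UMIs in 36 and 23 cells led by Ighm and Igkc, immunoglobulin genes of B cells, and Axin2 had 21 and 16 UMIs in 108 and 38 glia-like cells. In the Ighm-led cells this was 230 CPM of Lef1 in the deletion library (139 to 359) and 505 CPM in the control library (343 to 716). The control value was the highest Lef1 level of the 32 clusters and sub-clusters in that library.

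The nearest profiles to the response genes were those of Mfap2, a microfibril gene, and Glis2 for Axin2 (r = 0.86 for each), and of Igsf10 and Aebp1 for Nkd1 (r = 0.90 and 0.88). For Tcf7 they were Cpne5 (r = 0.88) and the collagen gene Col26a1 (r = 0.86). Lef1 had no close match, the highest values being 0.73 for Tut4, a terminal uridylyltransferase, and 0.73 for Alkbh8.

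Between the libraries, the epithelial gene with the lowest log2 ratio was Wnt10b. In epithelium-like cells it had 161 UMIs and 23.5 CPM in the deletion library (19.98 to 27.4) and 435 UMIs and 41.8 CPM in the control library (37.96 to 45.9). Its log2 ratio of -0.72 and count ratio of 0.466 to 0.674 fell short of the 2-fold rule and of its 50 CPM minimum. Within the Megf11-led sub-cluster its log2 ratio was -0.83 (count ratio 0.446 to 0.695). After every cell was thinned to 1900 UMIs, a Wnt10b UMI was found in 31.7% of its cells in the deletion library and in 60.1% in the control library, whereas endothelium-like cells gave 0% and 0.103%. Before thinning the medians were 2851 and 3256 UMIs in the sub-cluster and 2958 and 3026 UMIs in endothelium-like cells. Wnt10b was also sparser in the inner enamel epithelium-like cells, at 9.81 and 19.5 CPM (26 and 84 UMIs), and in the oral keratinocyte-like cells, at 14.3 and 30.0 CPM (9 and 22 UMIs).

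The Wnt10b difference was uneven over cells of the Megf11-led sub-cluster, a split made after its values were seen. Among its cells with at most 10% mitochondrial UMIs Wnt10b stood at 374 CPM in 73 cells of the deletion library and at 462 CPM in 78 cells of the control library, and the count ratio interval, 0.616 to 1.06, included 1. Among cells above 10% it stood at 183 CPM in 41 cells (23 UMIs) and at 667 CPM in 71 cells (167 UMIs). Edar in the same cells had 175 and 215 CPM at the lower mitochondrial share and 167 and 280 CPM at the higher one. By sex, Wnt10b had 344 and 689 CPM in Xist-only cells and 274 and 462 CPM in Y-only cells, of which the deletion library had 12. The part of mitochondrial content in the difference was not tested.

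**Figure D2:**
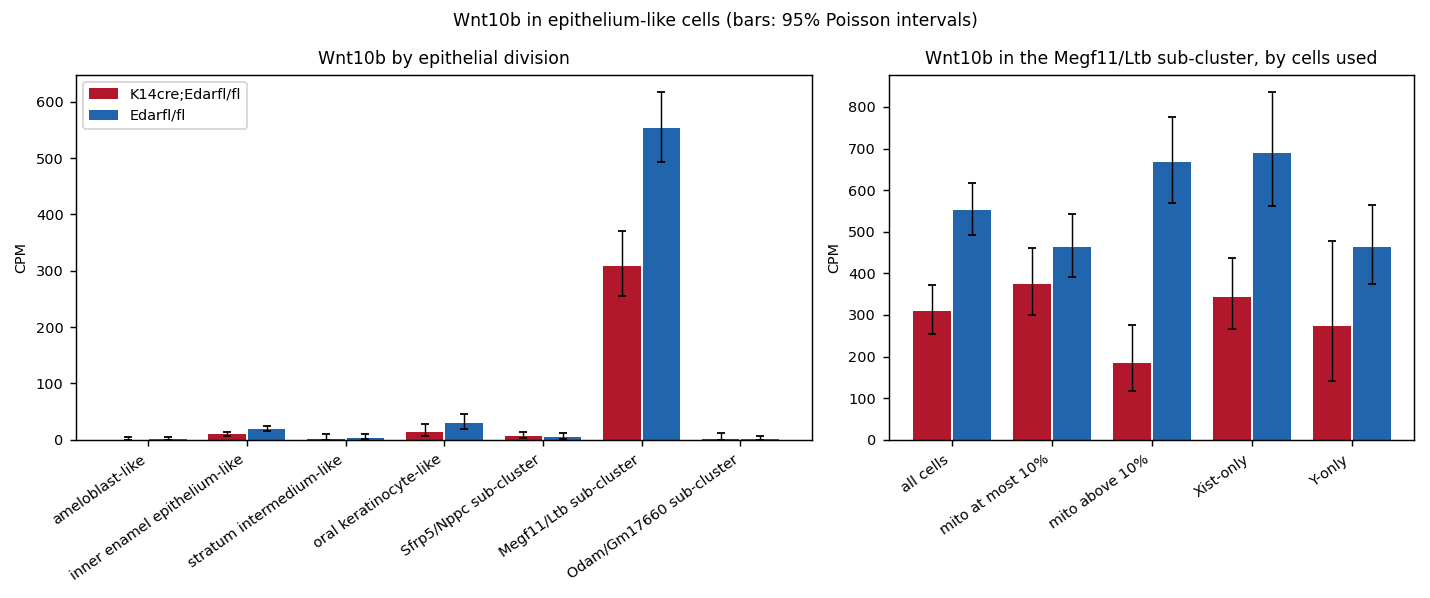
Wnt10b in CPM (y axes, linear from 0) in 7 epithelial divisions (left) and in the Megf11/Ltb sub-cluster split by the cells used (right), K14cre;Edarfl/fl in red beside Edarfl/fl in blue, with 95% Poisson intervals. The sub-cluster stands at 309 and 553 CPM, and its intervals overlap among cells with at most 10% mitochondrial UMIs but not among those above.

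The other genes went in different directions in that sub-cluster. Lef1 had 208 and 140 CPM (log2 ratio 0.56, count ratio 1.07 to 2.07), Wnt4 84.7 and 45.9 CPM (31 and 26 UMIs, log2 ratio 0.82, count ratio 1.06 to 3.23), Wnt10a 175 and 140 CPM and Wnt6 317 and 290 CPM. The intervals of the count ratios of Wnt10a and Wnt6 included 1. Axin2, at 73.8 and 90.1 CPM, had a ratio interval of 0.494 to 1.33, and Wnt7b had 0 and 8 UMIs. Lef1 among cells with at least 1000 genes and at most 10% mitochondrial UMIs was at 228 and 111 CPM (log2 ratio 1.01, count ratio 1.32 to 3.25), while above 10% it was at 175 and 176 CPM. In the sub-cluster 3.63% of 3612 genes were called, none of them one of the 10.

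Tcf7 passed the rule of size in the Sfrp5-led epithelial sub-cluster, where 1.13% of 3446 genes passed in either direction and 0.58% were lower. Its level was 52.9 CPM (39.7 to 69.0, 54 UMIs in 244 cells) in the deletion library and 124 CPM (104 to 147, 135 UMIs in 182 cells) in the control library, a log2 ratio of -1.16 and a count ratio of 0.304 to 0.588. The sub-cluster was mixed differently by sex: 105 of its cells in the deletion library and 11 in the control library were Xist-only, and 31 and 76 were Y-only. In Y-only cells Tcf7 had 7 UMIs and 41.2 CPM in the deletion library, against 85 UMIs and 149 CPM in the control library. In Xist-only cells it had 18 UMIs and 0 UMIs, and the few control cells allow no comparison. In the same sub-cluster Wnt6 had 134 and 95.7 CPM, a count ratio of 1.08 to 1.83.

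Elsewhere in the epithelium differences were small. In ameloblast-like cells the count ratio intervals of all 10 genes included 1. Wnt4 was at 256 and 355 CPM in oral keratinocyte-like cells (log2 ratio -0.47, count ratio 0.588 to 0.880) and at 76.2 and 91.3 CPM over the class. Nkd1 was at 11.5 and 8.36 CPM (79 and 87 UMIs, count ratio 1.00 to 1.89) and Wnt10a at 65.9 and 82.7 CPM (count ratio 0.709 to 0.893), while 42.6% of the 3550 genes had a count ratio interval that excluded 1.

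In mesenchyme-like cells Wnt10a and Wnt6 had the lowest ratios and Wnt5a the highest. Wnt10a stood at 62.6 CPM in the deletion library (60.3 to 65.1) and at 103 CPM in the control library (100.2 to 106), a log2 ratio of -0.68. Wnt6 stood at 79.4 (76.7 to 82.2) and 133 CPM (130 to 136), a log2 ratio of -0.71. Wnt5a stood at 463 (456 to 469) and 351 CPM (345 to 356), a log2 ratio of 0.39. These class averages moved with the make-up of the class. Odontoblast-like cells were 6.002% of mesenchyme-like cells in the deletion library and 18.0% in the control library, the Sgms2-led sub-cluster 12.3% and 17.1%, and dental follicle-like cells 16.04% and 8.45%. Odontoblast-like and Sgms2-led cells together held 78.8% and 88.8% of mesenchymal Wnt10a UMIs and 76.2% and 86.3% of mesenchymal Wnt6 UMIs. When each sub-cluster was given the same weight in both libraries, the log2 ratios were -0.04 for Wnt10a, -0.01 for Wnt6 and 0.06 for Wnt5a.

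**Figure D3:**
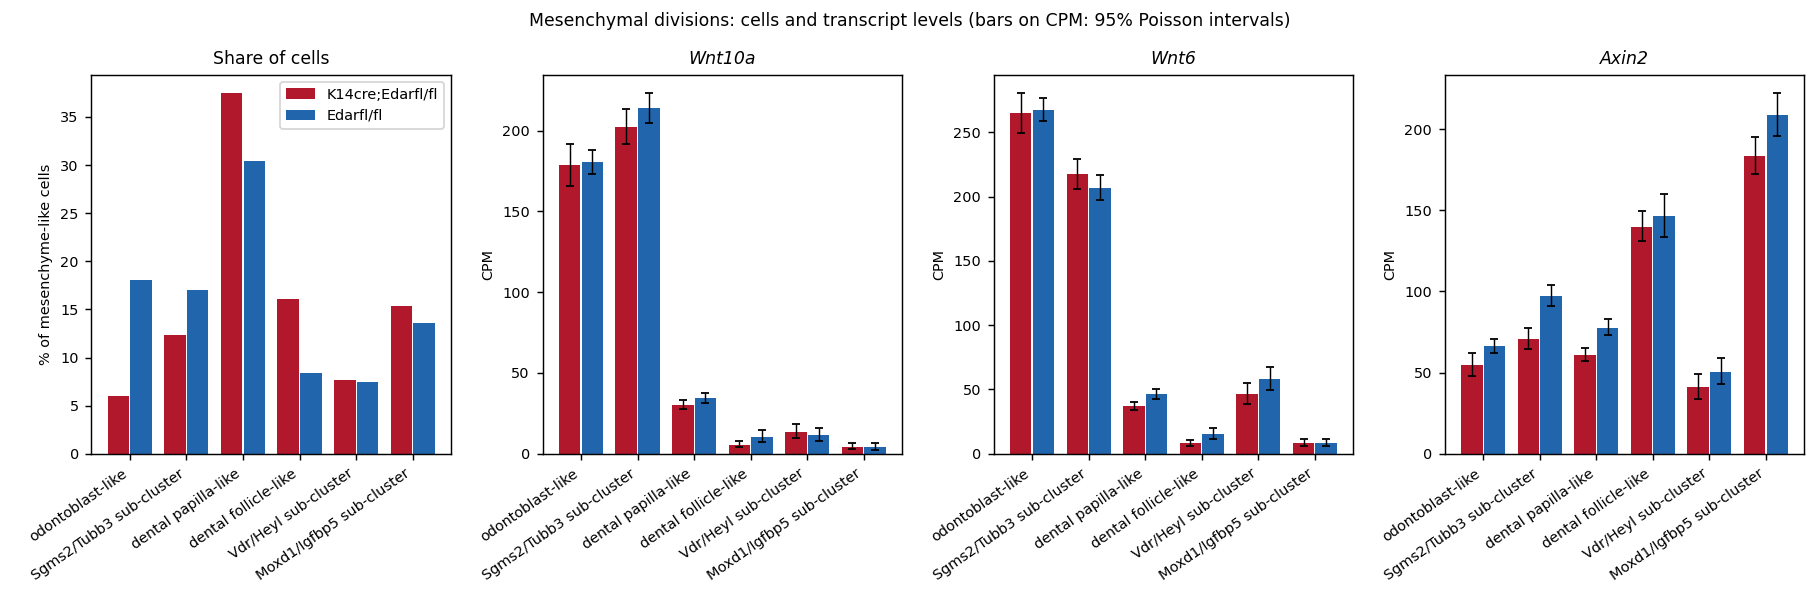
Share of mesenchyme-like cells in percent (left panel) and CPM of Wnt10a, Wnt6 and Axin2 (other panels, linear from 0, 95% Poisson intervals) in 6 mesenchymal divisions, K14cre;Edarfl/fl in red beside Edarfl/fl in blue. Odontoblast-like cells are 6.002% and 18.0% of the class, while their Wnt10a (178 and 180 CPM) and Wnt6 (265 and 268 CPM) have overlapping intervals, and Axin2 is lower in the deletion library in each division shown.

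Within the 2 main mesenchymal sources the levels differed little between the libraries. In odontoblast-like cells the count ratio lay between 0.910 and 1.07 for Wnt10a and between 0.925 and 1.06 for Wnt6. In the Sgms2-led sub-cluster it lay between 0.881 and 1.01 for Wnt10a and between 0.980 and 1.13 for Wnt6. Dental papilla-like cells had 30.5 and 34.5 CPM of Wnt10a and 36.9 and 46.6 CPM of Wnt6, the second with a ratio of 0.702 to 0.891. Papilla-like cells pooled 4 sub-clusters in different proportions: the one led by Grik1, Angpt4 and Rspo4, with 4.83 and 4.98 CPM of Wnt6, was 37.6% of them in the deletion library and 19.1% in the control library, and the one led by Crym, Cenpa and Pclaf, with 69.3 and 72.9 CPM, was 28.7% and 37.3%. In each of the 4 the count ratio interval of Wnt6 included 1. Wnt10a went against its pooled direction in the papilla-like sub-cluster led by Gabrg3, Pappa and Pcp4, at 36.7 and 22.7 CPM (count ratio 1.215 to 2.15). Over the 11 finer mesenchymal sub-clusters the Wnt10a log2 ratio was below 0 in 8 and above 0 in 3. Fibroblast-like cells had 5 UMIs and 2.94 CPM of Wnt10a in the deletion library and 31 UMIs and 18.1 CPM in the control library. Wnt5a was at 1132 and 1066 CPM in follicle-like cells, a count ratio of 1.02 to 1.10. In neither of their 2 sub-clusters was it higher beyond counting error. The one led by Pappa2 and Cyp26b1, 83.6% and 74.5% of follicle-like cells, had 1264 and 1250 CPM (count ratio 0.968 to 1.06). The Top2a-led one had 582 and 656 CPM (count ratio 0.798 to 0.988).

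Axin2 was the only 1 of the 10 genes with a log2 ratio below 0 in each of the 7 mesenchymal divisions. In the Sgms2-led sub-cluster it had 70.9 CPM in the deletion library (64.5 to 77.6, 458 UMIs) and 97.3 CPM in the control library (91.0 to 104, 881 UMIs), a log2 ratio of -0.43. Dental papilla-like cells had 61.1 and 77.8 CPM (log2 ratio -0.32), odontoblast-like cells 54.8 and 66.3 CPM (-0.26), fibroblast-like cells 68.3 and 103 CPM (-0.55) and follicle-like cells 140 and 147 CPM (-0.06). Of 3474 genes, 6.19% were below 0 in all 7 divisions, so the pattern was shared by 215 genes. Over 11 finer sub-clusters Axin2 was below 0 in 8 and above 0 in 3, the 3 being the Pappa2-led sub-cluster of follicle-like cells and 2 of the 4 of papilla-like cells. Its class-wide log2 ratio, -0.10, was -0.20 with equal sub-cluster weights, 0.04 in Xist-only cells and -0.20 in Y-only cells.

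The other response genes went in different directions. Tcf7 was at 180 and 179 CPM in mesenchyme-like cells and at 126 and 157 CPM in follicle-like cells (log2 ratio -0.30). Lef1 was at 54.1 and 44.4 CPM over the class, at 61.8 and 86.2 CPM in follicle-like cells and at 32.8 and 41.7 CPM in papilla-like cells, and its class-wide ratio was -0.04 with equal weights. Follicle-like cells pooled a cycling sub-cluster led by Top2a and Prc1, which was 16.4% of them in the deletion library and 25.5% in the control library, with one led by Pappa2 and Cyp26b1. Lef1 stood at 254 and 248 CPM in the Top2a-led and at 15.8 and 13.9 CPM in the Pappa2-led sub-cluster, and Tcf7 at 329 and 337 CPM and at 77.8 and 76.9 CPM. All 4 count ratio intervals included 1, so neither gene was lower within the 2 sub-clusters beyond counting error. Nkd1 was at 119 and 149 CPM in the Moxd1-led sub-cluster (log2 ratio -0.32) and at 70.2 and 54.3 CPM in the unnamed sub-cluster led by Vdr, Heyl, Fabp7 and Slc20a2 (log2 ratio 0.34). In mesenchyme-like cells 84.1% of 3474 genes had a count ratio interval that excluded 1, so an interval that excludes 1 sets none of these genes apart. Cells of the 2 sexes did not always differ alike: in papilla-like cells the Xist-only and Y-only count ratios of Wnt6, Wnt5a and Nkd1 lay on opposite sides of 1, as did those of 17.1% of 3499 genes, and in the Vdr-led sub-cluster those of Wnt6 did, as for 0.72% of 3332 genes.

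**Figure D4:**
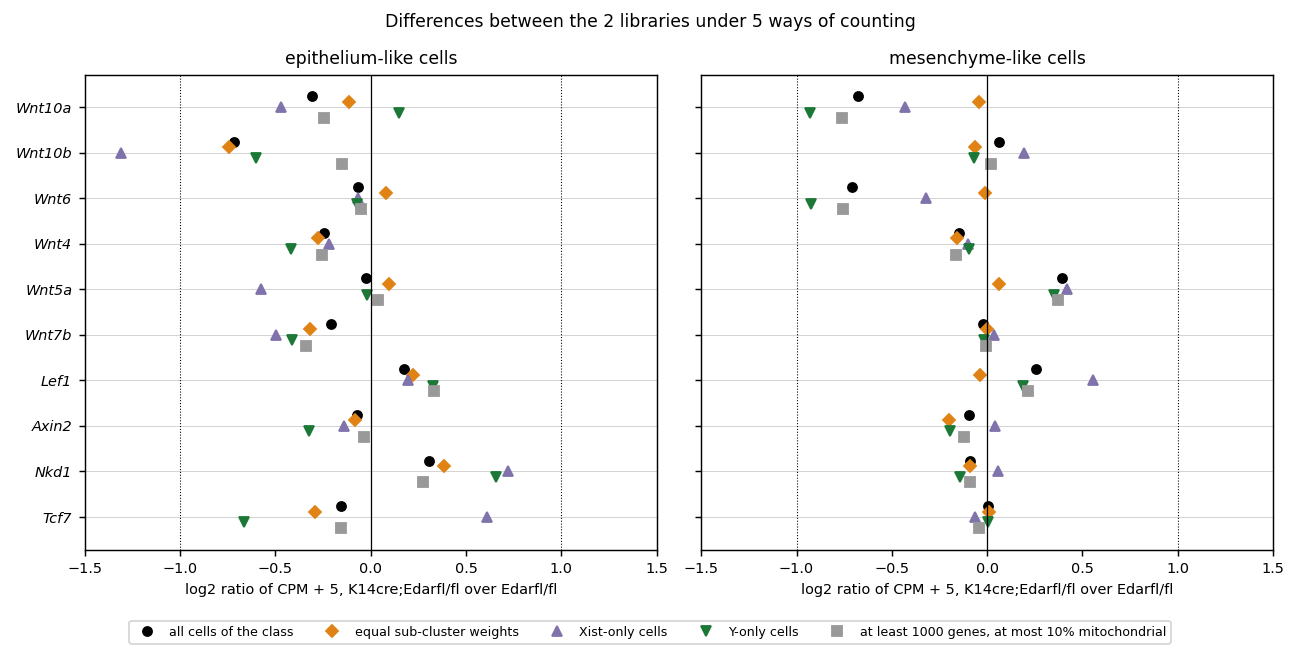
Log2 ratios of CPM + 5, K14cre;Edarfl/fl over Edarfl/fl (x axis; dotted lines mark 2-fold), for the 10 genes (rows) in epithelium-like (left) and mesenchyme-like cells (right) under 5 ways of counting. Wnt10a and Wnt6 in mesenchyme stand at -0.68 and -0.71 and near 0 with equal sub-cluster weights, and epithelial Wnt10b spans -1.31 to -0.15.

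The other 75 pathway genes were described in 7 lists. In epithelium 0 of them passed the rule of size, against 0.254% of the 3550 genes at 50 CPM. In mesenchyme 1 did, against 0.604% of 3474. Not all of the 75 reached 50 CPM, and those below it could not be called. Of the 13 other Wnt ligands, 4 reached 5 CPM in epithelium, all with ratios below 0, led by Wnt3a, a canonical ligand, with 87.0 and 118 CPM (log2 ratio -0.41). In mesenchyme 3 reached 5 CPM, with Wnt5b the most abundant at 23.2 and 25.7 CPM. The secretion genes had medians of 0.04 in epithelium and 0.25 in mesenchyme (-0.0037 with equal sub-cluster weights), where the median of all features at 5 CPM was -0.04 and 0.08. The cargo receptor Wls had 666 and 754 CPM in epithelium, and Gpc3, a cell surface proteoglycan, 1015 and 865 CPM in mesenchyme.

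Of 16 Frizzled and co-receptor genes, 9 of the 13 measured in epithelium were above 0 (median 0.11) and 12 of the 14 measured in mesenchyme (median 0.33, and 0.06 with equal sub-cluster weights). Ryk, an atypical Wnt receptor, led the list in both, with 254 and 258 CPM in epithelium-like cells, while its mesenchymal level was 221 and 243 CPM. Among 10 genes of beta-catenin and its destruction complex, 7 were below 0 in epithelium (median -0.12) and 1 was in mesenchyme (median 0.05). That 1 was the gene of beta-catenin itself, Ctnnb1, with 895 and 1035 CPM, and in epithelium it had 1674 and 1851 CPM. All 6 other TCF factors and co-activators were above 0 in mesenchyme (median 0.26, and 0.04 with equal weights), led by Tcf7l1 with 154 and 109 CPM. In epithelium 3 were above and 3 below, led by Tcf7l2 with 137 and 140 CPM.

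The 12 other response and feedback genes had medians of 0.02 in epithelium and -0.04 in mesenchyme, with 5 of 10 measured genes above 0 in each. Ccnd1, a cyclin, led in epithelium with 532 and 502 CPM, and Wif1, a secreted Wnt inhibitor, in mesenchyme with 679 and 907 CPM. R-spondins and secreted antagonists had medians of 0.23 in epithelium and 0.47 in mesenchyme, the second 0.03 with equal weights. Sostdc1, an antagonist of Wnt and BMP signals, led in epithelium with 498 and 524 CPM, and Sfrp1, which binds Wnt proteins, in mesenchyme with 445 and 283 CPM. The 1 gene that passed the rule was Rspo4, an R-spondin that amplifies Wnt signals, with 141 and 59.5 CPM in mesenchyme (log2 ratio 1.17). It no longer passed with equal sub-cluster weights.

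RefSeq promoter windows of the GRCm38.p6 build, from 250 bases before to 50 bases after a start, were at hand for 7 of the 10 genes, with 11 windows in all. The letters CTTTGAA, a form of the site that TCF and LEF factors bind, were searched on both strands, and so were its forms CTTTGAT (with T as the last letter) and CTTTGTT. No position can match more than 1 of these. None of the 11 windows held any of them, and 13.9% of 32851 windows of the same length did. That says only that these letters are not in these windows.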

How the data were processed

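Per the labels' protocols, germs were dissociated with enzymes, depleted of red and dead cells and captured on the BD Rhapsody microwell system, 1 library per genotype. The submitters' processing notes name STARsolo with mm10, without its version or annotation. The authors deposited whole-number UMI counts per gene and barcode, not normalized. Identifiers and positions come from the GENCODE M21 annotation of mm10, which held 31184 of 31253 features.

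Barcodes with at least 500 genes and at most 20% mitochondrial UMIs were kept, and Scrublet removed 243 called doublets from the deletion library and 176 from the control library. Cells were clustered with scanpy 1.11.5 on counts scaled to 10000 per cell and log-transformed (2000 variable genes with the library as batch, 30 principal components, 15 neighbours, Leiden resolution 1, and 0.6 within epithelium and mesenchyme). The 10 genes, mitochondrial, ribosomal, haemoglobin and Y-linked genes, Xist and Tsix were left out of the variable genes. Other X-linked genes were not left out. Class names came from marker lists: at least 3 markers detected in 10% of cells, a score of at least 0.5 and a lead of at least 0.1. A name was also withheld where more of the leading genes were markers of another list. This scoring rule was set after seeing the data, and the 10 genes and all lists were chosen with earlier results of these data known. The summed level of the epithelial markers is not reported here. Sub-clusters that stayed unnamed are called by their leading genes. The Sgms2-led sub-cluster scored 1.65 for odontoblast markers and 0.91 for osteoblast markers and stayed unnamed by that last step. The share of odontoblast-like cells and their contrast with Sgms2-led cells thus depend on the naming. The Moxd1-led sub-cluster scored 1.58 for dental follicle markers and stayed unnamed, while the Top2a-led one scored 1.08 and was counted as follicle-like. With called doublets kept, the Moxd1-led sub-cluster was itself named dental follicle, so the contrast of follicle-like with Moxd1-led cells depends on the naming.

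UMIs were summed per class and library, and differences in units with under 50 cells in a library are not read as calls, though the rule was passed there by Axin2 in glia-like cells, Lef1 in Ighm-led cells, and Wnt6 and Wnt5a in an endothelium-led epithelial sub-cluster. The genes named besides the 10 are the 2 likest genes to each (Pearson r of log2 of CPM + 5 over clusters, among 8399 genes of at least 50 CPM in a cluster), the most abundant gene of each list in each class, and list genes that passed the rule of size. The rule was tested on simulated counts with counting error only and large changes. That cannot show how it fares with differences between animals or in cell make-up. For shares of cells, each cell was thinned to 1900 UMIs, which left out 1644 cells of the deletion library and 946 of the control library. Equal weighting used each sub-cluster's mean share of cells over both libraries. Poisson intervals limit precision for genes with few UMIs and cover counting error only. A sum of 0 UMIs allows up to 3 counts.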

Additional observations from a re-analysis of the deposited data

Results flagged for a closer look

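In dental papilla-like cells 3 of the genes differed between the libraries in opposite directions in Xist-only and Y-only cells, with count ratio intervals on opposite sides of 1. These cell sets were defined from the data and are not groups of the study, there was 1 library of each genotype, and the difference between the sets was not tested. There were 938 Xist-only cells in the deletion library and 692 in the control library, and 1318 and 885 Y-only cells. Wnt6 had 55.9 and 39.0 CPM in Xist-only cells (log2 ratio 0.47) and 30.3 and 53.0 CPM in Y-only cells (log2 ratio -0.71). Wnt5a had 321 and 210 CPM in Xist-only cells (log2 ratio 0.60) and 205 and 239 CPM in Y-only cells (log2 ratio -0.22). Nkd1 had 66.5 and 51.9 CPM in Xist-only cells (log2 ratio 0.33) and 52.6 and 68.0 CPM in Y-only cells (log2 ratio -0.34). Wnt6 showed the same in the Vdr-led mesenchymal sub-cluster, with 67.7 and 38.5 CPM in Xist-only cells (log2 ratio 0.74) and 30.8 and 55.3 CPM in Y-only cells (log2 ratio -0.75). The papilla-like sub-clusters were mixed differently in these sets. The sub-cluster led by Grik1, Angpt4 and Rspo4 was 13.97% and 29.9% of Xist-only papilla-like cells and 50.1% and 14.1% of Y-only ones, and the one led by Crym, Cenpa and Pclaf was 47.5% and 32.95% and then 21.6% and 41.7%. Within each of the 4 sub-clusters the Wnt6 intervals included 1 in both sets of cells, whereas Wnt5a in the Crym-led one was at 415 and 304 CPM in Xist-only cells, a count ratio of 1.22 to 1.53. In papilla-like cells 17.1% of 3499 genes lay on opposite sides of 1 in this way, and in the Vdr-led sub-cluster 0.72% of 3332 genes did.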

How the results depend on the processing

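No paired analysis was possible because each genotype had 1 library, and for the same reason no replicate could be left out. With no member called in mesenchyme-like cells, none was called there under 13 alternatives. In epithelium-like cells, 1 was called in Xist-only cells, Wnt10b (log2 ratio -1.31), and 0 under the other 11 alternatives. The Megf11-led sub-cluster was 53 of the 880 Xist-only epithelial cells in the deletion library and 43 of 386 in the control library. Among Xist-only cells the Wnt10b log2 ratio was -0.99 within it and -0.37 outside it (count ratio 0.308 to 1.40), and neither was called. Within named subtypes, 1 was called without the minimum of 50 CPM (Wnt10a in fibroblast-like cells, -1.54), 1 in Y-only cells (Wnt4 in oral keratinocyte-like cells, -1.22), and 0 under 4 others. Of the pathway lists, which had 1 called gene, Rspo4, 2 were called with ratios centred on the median of all genes, 2 after thinning to 1900 UMIs, and 0 with equal sub-cluster weights. In the first 2 of these the added gene was Dkk1, a Wnt antagonist, lower in mesenchyme.

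Epithelial Wnt10b moved to a log2 ratio of -0.15 with at least 1000 genes and at most 10% mitochondrial UMIs, against -0.72 as reported. Under this filter both parts of the class stood further from 0 than the class value of -0.15. In the Megf11-led sub-cluster the log2 ratio was -0.34 with the filter (count ratio 0.598 to 1.04), against -0.83 without it. This filter left 68 of its 114 cells in the deletion library and 78 of 149 in the control library. In the rest of the epithelium the log2 ratio was -0.42 with the filter (count ratio 0.409 to 0.970), against -0.49 without it. The class with the highest level was the same for all 10 genes under 3 alternatives. Among values of single genes and lists, 237 values stayed inside the counting interval (for list medians, within 0.1) and 71 moved outside it. No called value was turned round, but none of these gene values was called as reported, so none could be. The causes were not tested. Depth limits Wnt7b, with 76 UMIs in the deletion library and 129 in the control library, and subtypes of about 100 cells.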

Other observations

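The unnamed cluster led by Mmp13, Spp1, Pdzrn4 and Sfrp4, with 380 cells in the deletion library and 212 in the control library, was not part of the mesenchyme-like class. Lef1 stood there at 34.2 CPM (47 UMIs) in the deletion library and at 14.8 CPM (15 UMIs) in the control library, a count ratio of 1.27 to 4.45. Both levels were below the 50 CPM minimum of the rule. Of 3371 genes at that minimum, 17.2% had a count ratio interval that excluded 1 in this cluster. The cluster held 15.3 and 16.8 CPM of Wnt10b, about the level of fibroblast-like cells, which had 16.5 and 17.5 CPM. Dental papilla-like cells had 0.404 and 0.163 CPM. Mesenchyme-like cells held 36.4% of all Wnt10b UMIs in the deletion library and 18.4% in the control library, while their Wnt10b level was 2.53 and 2.21 CPM.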
